A study of Homo sapiens with 204 samples.

Results

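The mRNAs of 28 proteins of the small (40S) ribosomal subunit were followed through the knockdown of 75 ribosomal proteins in A549 cells, a human lung adenocarcinoma line. The 28 genes were taken by symbol from the RNA-seq and Ribo-seq count tables, which hold 41379 and 19217 genes, and all 28 had a row in both. Because 25 of the 28 were themselves knocked down, each gene's values in its own knockdown were left out of every result below. In the study each ribosomal protein was depleted alone with small interfering RNA (siRNA) at 40 nM for 24 h, and control cells received non-targeting siRNA under the same conditions, so that every group was transfected. Cycloheximide, a blocker of elongation, was added before lysis. One aliquot of a lysate gave an RNA-seq library, for the amount of each mRNA, and another a Ribo-seq library, made from the footprints that ribosomes shield from nuclease. Each assay has 43 libraries from 31 small-subunit targets, 48 libraries from 44 large-subunit targets and 11 control libraries. Of the 75 targets, 16 have 2 libraries and the others 1. The model is a single cell line, in which siRNA lowers a protein's mRNA without removing it. The comparisons ask how mRNAs of the small subunit and their translation differ when the small or the large subunit loses a protein.

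The small subunit binds mRNA and reads its codons against tRNA, while the large subunit joins amino acids. mRNAs of ribosomal proteins belong to the TOP class, named for a terminal oligopyrimidine run at the 5′ end that begins with C. Translation of TOP mRNAs is known to move as a group with growth signals, through the kinase mTOR and the RNA-binding protein LARP1.

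A library held between 18.8 and 63.6 M counts in RNA-seq, with a median of 27.8 M, and between 7.77 and 57.2 M in Ribo-seq, with a median of 23.8 M (M, 1e6 counts; CPM, counts per M). At the lowest depth, 0 counts leave room for 0.16 CPM by RNA-seq or 0.386 CPM by Ribo-seq, counting error alone considered. The 28 genes held 1.25 to 2.2% of RNA-seq counts and 0.984 to 2.23% of footprints in knockdowns, against 1.63 to 2.28% and 1.41 to 1.67% in controls. Each of the 25 targeted members lay below all controls in its own knockdown, with log2 ratios from -5.99 for RPS6 to -2.79 for RPS15A; RPS20, RPS27A and FAU were not targeted. All 8 markers of A549 cells and lung epithelium averaged at least 1 CPM in RNA-seq, with sums of 4100 to 11100 CPM in knockdowns and 4500 to 8800 CPM in controls. In RNA-seq, fibroblast and blood markers summed to at most 52.3 and 54 CPM in knockdowns and 25.9 and 35 CPM in controls. In Ribo-seq they reached 56.6 and 263 CPM in knockdowns and 26.4 and 54.2 CPM in controls. Between small- and large-subunit knockdowns the fibroblast marker COL1A1 was higher (0.67 ± 0.13 in mRNA and 0.79 ± 0.13 in footprints, log2) and the macrophage marker CD68 lower (-0.64 ± 0.06 and -0.54 ± 0.08). The blood marker HBB was higher in footprints (4.43 ± 0.82). Of the 8 A549 and lung epithelium markers, EPCAM was higher (0.7 ± 0.15 in mRNA and 0.79 ± 0.2 in footprints) and KRT19 lower in mRNA (-0.37 ± 0.12). The part of these differences in the results on members was not tested. Titles form 2 sets, numbered (24 small-subunit, 8 large-subunit and 6 control libraries) and unnumbered (19, 40 and 5), and the set is a term in each model. Control 20_2 of the numbered set stood apart, with a median log2 ratio over members of 0.55 in RNA-seq and -0.58 in translation efficiency. The labels do not say whether repeats came from separate cultures, so p-values measure the spread between libraries, which may be partly technical. Values are shares of a library, so that fewer cells and less RNA per cell cannot be told apart. In classes of targets, libraries of different targets stand in as replicates.

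The annotated 5′ ends of the members show the TOP feature in most, but not all, of them. A run was counted where the RefSeq start is a C followed by at least 4 pyrimidines (C or T) on the transcribed strand. Of the 25 members with an entry, 19 (76%) had such a start, against 28 of 38 (73.7%) for large-subunit protein genes, 12 of 16 (75%) for other TOP genes and 1404 of 27305 (5.14%) of all genes. RPS4X, RPS7, RPS15, RPS26, RPS28 and RPS29 had none that begins at the annotated start base. Runs that begin at other bases were not counted, and some of these members, such as RPS15 and RPS28, have one within the window. The 6 sequences below (RefSeq, GRCh38.p14) belong to members at both ends of the results that follow. Each gives 10 bases before and 20 bases from the annotated start, with a counted run in capitals. RPS6 lies at chr9:19380217-19380246 (minus strand), RPS3 at chr11:75399508-75399537 (plus), RPS4X at chrX:72277229-72277258 (minus), RPS29 at chr14:49598691-49598720 (minus), RPSA at chr3:39406710-39406739 (plus) and FAU at chr11:65122115-65122144 (minus).
RPS6: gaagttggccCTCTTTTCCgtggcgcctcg
RPS3: cgagccacttCCTTTCCTTTCagcggagcg
RPS4X: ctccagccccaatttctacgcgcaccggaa
RPS29: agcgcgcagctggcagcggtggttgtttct
RPSA: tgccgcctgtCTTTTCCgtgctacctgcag
FAU: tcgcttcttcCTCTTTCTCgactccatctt
RPS6 and RPS3 have a counted run at the start, and RPS4X and RPS29 have none there. These 4 had the largest differences in translation efficiency between small- and large-subunit knockdowns. RPSA and FAU have a counted run and were among the members with the smallest differences. Whether the run bears on these differences was not tested.

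Small-subunit protein mRNAs were translated more in small-subunit knockdowns than in large-subunit knockdowns, while their mRNA levels were lower. Translation efficiency, the change of footprints beyond the change of mRNA, was higher for 21 of 26 members tested, where 2.47% of all genes were called higher. It was lower for 0 of 26, where 1.17% of all genes were called lower (0 also at unadjusted p under 0.05, and 0 with limma on lysate-paired ratios, which called 23 higher). The median over members was 0.73 on the log2 scale, against -0.01 over all 12480 genes tested. mRNA was lower for 23 of 28 members (15.3% of genes lower) and higher for 0 (16.4% of genes higher; 0 also at unadjusted p under 0.05 and with DESeq2), with a median log2 fold change of -0.23. Footprints were higher for 17 of 26 members (11.3% of genes higher) and lower for 0 (10.9% of genes lower; 0 also at unadjusted p under 0.05 and with DESeq2), with a median of 0.40. The test was edgeR's quasi-likelihood test with Benjamini-Hochberg adjustment over all genes and a threshold of 0.05. RPS26 and RPS28 had too few footprints for the filter, with control medians of 3 and 12 counts. RPS27 and RPS3A were also low, with 88 and 24, so the footprint values of these 4 are imprecise. How the authors' counting treated reads shared with pseudogene copies is not given in the sources used here, so that single members are uncertain.

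**Figure D1:**
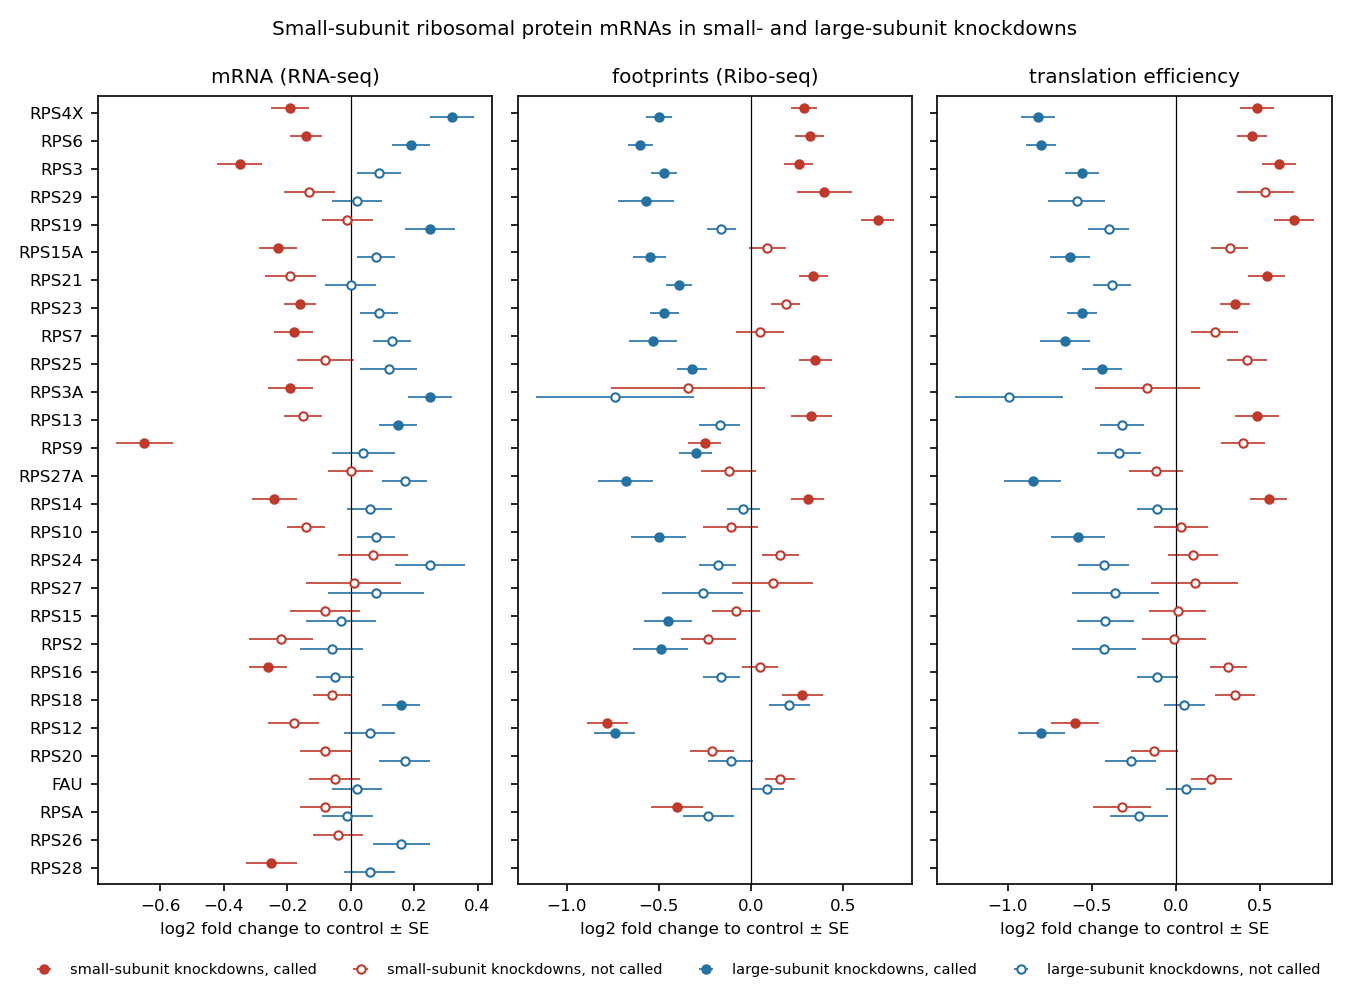
Log2 fold change of each member (rows, ordered by the difference in translation efficiency) in small-subunit and large-subunit knockdowns against control, in RNA-seq, Ribo-seq and translation efficiency, with SE bars; filled points passed an adjusted p of 0.05. In translation efficiency the medians over members lie at 0.32 in small-subunit and -0.43 in large-subunit knockdowns, while in RNA-seq they lie at -0.14 and 0.08.

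RPS6, the 40S substrate of the S6 kinases, gave the clearest separation. Its log2 ratio of translation efficiency to control ran from -0.20 through a median of 0.45 to 1.02 in 42 small-subunit libraries, from -1.28 through -0.80 to -0.08 in 48 large-subunit libraries, and from -0.32 through -0.04 to 0.38 in 11 controls. The knockdown classes met only between -0.20 and -0.08, with 24 small-subunit libraries above and 42 large-subunit libraries below every control of their title set. The fitted difference was 1.25 ± 0.06 (log2, SE; adjusted p = 1.04e-45, edgeR). Its mRNA had medians of 1510 CPM in small-subunit knockdowns, 1830 CPM in large-subunit knockdowns and 1640 CPM in controls. Its footprints ran the other way, with medians of 1850, 1050 and 1540 CPM in the same order of groups. RPS6 thus had less mRNA but more footprints in small-subunit than in large-subunit knockdowns.

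Among the other body and platform proteins, which form the part of the subunit below the head, RPS4X led. RPS4X is the X-linked RPS4 gene, and its translation efficiency ratio ran from -0.50 (median 0.56) to 1.19 in 42 small-subunit libraries, from -1.20 (median -0.86) to -0.18 in 48 large-subunit libraries and from -0.60 (median -0.16) to 0.80 in controls. Of the large-subunit libraries 45 lay below all controls of their set, and 18 small-subunit libraries lay above them. The difference was 1.29 ± 0.07 (adjusted p = 3.42e-45, edgeR), with -0.51 ± 0.04 in mRNA and 0.79 ± 0.05 in footprints. RPS23, which sits at the decoding centre, differed by 0.90 ± 0.06 in translation efficiency, RPS15A by 0.95 ± 0.08, RPS7 by 0.89 ± 0.10 and RPS13 by 0.80 ± 0.08. RPS21, a small protein of the solvent side, differed by 0.92 ± 0.07 and the platform protein RPS14 by 0.65 ± 0.08. In all, 12 of 15 body and platform members tested were called higher (median 0.80). In mRNA, 12 of 16 were called lower.

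RPS9, which helps shape the mRNA entry channel, had the largest mRNA difference of the 28. Its mRNA ratio ran from -1.53 (median -0.66) to 0.20 in 41 small-subunit libraries, from -0.48 (median 0.09) to 0.39 in large-subunit libraries and from -0.74 (median -0.03) to 0.86 in controls. Below all controls of their set lay 29 of the 41 small-subunit libraries but 4 of the 48 large-subunit ones. The difference was -0.69 ± 0.06 (adjusted p = 3.01e-16, edgeR). Its footprints did not follow, at 0.05 ± 0.06 (adjusted p = 0.609), and its translation efficiency was higher by 0.74 ± 0.09. RPS3A, a platform protein, differed by -0.44 ± 0.05 in mRNA, as did RPS3, and RPS4X lay between these and RPS9. Its footprints were too few for a close value (0.40 ± 0.30, adjusted p = 0.347, edgeR).

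Among the head proteins 9 of 11 members tested had higher translation efficiency (median 0.61) and 11 of 12 had lower mRNA. RPS3, which lines the mRNA entry site, had a translation efficiency ratio from -0.17 (median 0.69) to 1.31 in 41 small-subunit libraries, from -1.05 (median -0.63) to 0.17 in 48 large-subunit libraries and from -0.85 (median 0.03) to 0.87 in controls. The medians lay on both sides of the controls, but both classes overlapped them. The difference was 1.17 ± 0.07 (adjusted p = 2.05e-36, edgeR), with -0.44 ± 0.05 in mRNA. RPS19, the gene most often mutated in Diamond-Blackfan anaemia, stood above all controls of its set in 37 of 42 small-subunit libraries and below them in 34 of 48 large-subunit libraries. Its footprints had medians of 4470 CPM in small-subunit knockdowns, 2210 CPM in large-subunit knockdowns and 2870 CPM in controls. The differences of RPS19 were 0.85 ± 0.06 in footprints, -0.25 ± 0.06 in mRNA and 1.10 ± 0.08 in translation efficiency (adjusted p = 3.12e-28, edgeR).

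The zinc-binding RPS29 had the largest footprint difference, 0.97 ± 0.10 (adjusted p = 7.92e-13, edgeR), and a wide spread. Its translation efficiency ratio ran from -0.48 (median 0.56) to 2.06 in 42 small-subunit libraries, from -1.68 (median -0.43) to 0.40 in large-subunit libraries and from -1.35 (median -0.38) to 1.73 in controls. Both classes overlapped the controls over most of their range. Smaller differences in translation efficiency were called for RPS25 (0.87 ± 0.08), for RPS27A, which is made as a fusion with ubiquitin (0.72 ± 0.11), for RPS10 (0.61 ± 0.11), for RPS15 (0.43 ± 0.11), for RPS16 (0.42 ± 0.08) and for RPS18 (0.30 ± 0.08).

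Of the 5 members not called in translation efficiency, RPS27 was at 0.47 ± 0.17 (adjusted p = 0.129, edgeR) and 4 were closer to 0. RPSA, also known as the laminin receptor precursor, was at -0.10 ± 0.11 (adjusted p = 0.814, edgeR). Its ratio ran from -1.57 (median -0.41) to 2.51 in 42 small-subunit libraries, from -0.88 (median -0.12) to 0.60 in large-subunit libraries and from -0.64 (median 0.05) to 0.68 in controls, so that the small-subunit libraries reached beyond the other groups at both ends. The value of RPSA differed by title set. In the numbered titles alone it was called lower in small-subunit knockdowns, with log2 fold changes of -0.75 in footprints and -0.72 in translation efficiency, and it was the sole member called lower there. In the unnumbered titles alone its values were 0.14 and 0.23, and neither was called. RPS20, a head protein, was at 0.14 ± 0.10 (adjusted p = 0.59, edgeR), with ratios of -0.75 (median -0.20) to 0.45, -1.05 (median -0.28) to 0.29 and -0.45 (median 0.08) to 0.35 in small-subunit, large-subunit and control libraries. FAU, a fusion of a ubiquitin-like protein with the 40S protein eS30, was at 0.14 ± 0.08 (adjusted p = 0.438, edgeR). Its ratios were -0.72 (median 0.15) to 1.13, -0.63 (median 0.01) to 0.70 and -0.89 (median 0.17) to 0.61 in the same groups, which overlapped over nearly their whole range.

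RPS12, a protein of the beak of the head, was low in both classes. Its translation efficiency ratio ran from -1.22 (median -0.57) to 0.05 in 41 small-subunit libraries, from -1.43 (median -0.79) to 0.25 in 48 large-subunit libraries and from -0.50 (median -0.03) to 0.77 in controls. Of these, 32 small-subunit and 43 large-subunit libraries lay below all controls of their set. Its footprints had medians of 85.4 CPM in small-subunit knockdowns, 103 CPM in large-subunit knockdowns and 160 CPM in controls. Small- and large-subunit knockdowns differed by 0.21 ± 0.09 in translation efficiency (adjusted p = 0.296, edgeR). RPS12 was 1 of 4 genes in the whole table called lower in translation efficiency when all knockdowns were set against control (-0.70 ± 0.14, adjusted p = 8.64e-04, edgeR). That call was lost in each title set alone.

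**Figure D2:**
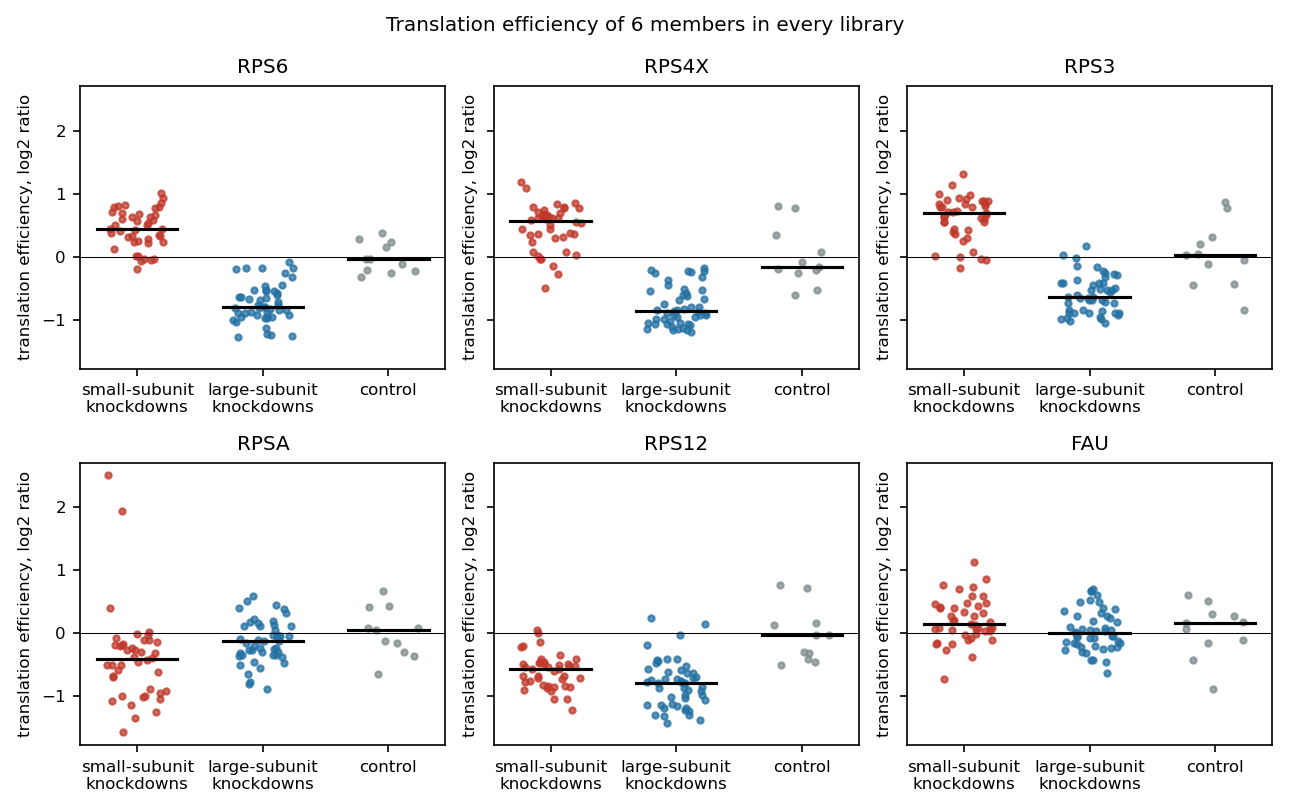
Log2 ratio of translation efficiency to the controls of the same title set, 1 point per library, for 6 members in small-subunit knockdowns, large-subunit knockdowns and controls. RPS6, RPS4X and RPS3 have medians of 0.45, 0.56 and 0.69 in small-subunit and -0.80, -0.86 and -0.63 in large-subunit knockdowns; RPS12 is low in both classes, RPSA spreads from -1.57 to 2.51 and FAU stays near its controls.

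With all knockdowns together, few members were called. In mRNA 0 of 28 members were called higher (13.4% of genes higher; 0 at unadjusted p under 0.05 and with DESeq2) and 1 lower (17.2% of genes lower), RPS16 at -0.16 ± 0.07 (adjusted p = 0.0469, edgeR). The RPS16 call was lost without control 20_2 and with DESeq2. In footprints 0 of 26 were higher (13.2% of genes higher; 2 at unadjusted p under 0.05, 1 with DESeq2) and 2 lower (13.5% of genes lower), RPS12 at -0.76 ± 0.10 (adjusted p = 7.36e-09, edgeR) and RPS9 at -0.27 ± 0.09 (adjusted p = 0.0123). In translation efficiency 0 of 26 were higher (0.433% of genes higher; 0 at unadjusted p under 0.05 and with lysate-paired limma), and RPS12 was the 1 lower (0.0321% of genes lower).

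Small-subunit knockdowns set against control had lower mRNA for 11 of 28 members (16.1% of genes lower) and higher for 0 (13% of genes higher; 0 also at unadjusted p under 0.05 and with DESeq2), a share above that of all genes in the lower direction. RPS9 fell most (-0.65 ± 0.09, adjusted p = 9.19e-09, edgeR), followed by RPS3 (-0.35 ± 0.07) and RPS16 (-0.26 ± 0.06). Without control 20_2 the count was 6, and within the numbered and unnumbered titles alone it was 1 and 6. Footprints were higher for 10 of 26 (12.6% of genes higher) and lower for 3 (12.4% of genes lower). RPS19 rose most (0.69 ± 0.09, adjusted p = 4.35e-10, edgeR), with RPS29 at 0.40 ± 0.15, RPS25 at 0.35 ± 0.09 and RPS21 at 0.34 ± 0.08. RPS12 (-0.78 ± 0.11), RPSA (-0.40 ± 0.14) and RPS9 (-0.25 ± 0.09) fell. Translation efficiency was higher for 8 of 26 (0.673% of genes higher), led by RPS19 (0.70 ± 0.12), RPS3 (0.61 ± 0.10), RPS14 (0.55 ± 0.11) and RPS21 (0.54 ± 0.11), and lower for RPS12 alone (-0.60 ± 0.14; 0.12% of genes lower). Within the numbered titles 1 member and within the unnumbered titles 0 were called higher in translation efficiency (edgeR; 10 with lysate-paired limma over both sets, 14 of 26 at unadjusted p under 0.05).

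Large-subunit knockdowns set against the same 11 controls had higher mRNA for 6 of 28 members (15.6% of genes higher) and lower for 0 (20% of genes lower; 0 also at unadjusted p under 0.05 and with DESeq2). The 6 were RPS4X (0.32 ± 0.07, adjusted p = 7.53e-05, edgeR), RPS3A, RPS19, RPS6, RPS18 and RPS13, and their share is near that of all genes. Footprints were lower for 15 of 26 (15% of genes lower) and higher for 0 (14.9% of genes higher; 0 also at unadjusted p under 0.05 and with DESeq2). RPS12 (-0.74 ± 0.11), RPS27A (-0.68 ± 0.15), RPS6 (-0.60 ± 0.07), RPS29 (-0.57 ± 0.15) and RPS15A (-0.55 ± 0.09) fell most. Translation efficiency was lower for 10 of 26 (0.529% of genes lower) and higher for 0 (0.521% of genes higher; 0 also at unadjusted p under 0.05 and with lysate-paired limma). RPS27A (-0.85 ± 0.17), RPS4X (-0.82 ± 0.10), RPS6 (-0.80 ± 0.09) and RPS12 (-0.80 ± 0.14) fell most, and RPS14, RPS18, RPS16 and FAU stood at -0.11, 0.05, -0.11 and 0.06 without a call. Within the numbered and unnumbered titles alone, 10 and 9 members had lower footprints and 5 and 5 lower translation efficiency. For RPS19 the rise of footprints in small-subunit knockdowns was the larger part of its difference (0.69 against -0.16 ± 0.08 in large-subunit knockdowns), while for RPS15A it was the fall in large-subunit knockdowns (-0.55 against 0.09 ± 0.10 in small-subunit ones).

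The same pattern was seen target by target, as the median log2 ratio over members in each knockdown. In translation efficiency the median ran from -0.25 to 0.61 over the 31 small-subunit targets (middle value 0.37, 26 above 0), from -0.92 to 0.20 over the 44 large-subunit targets (-0.51, 41 below 0) and from -0.58 to 0.34 over the controls (0.00). Above all controls of their title set lay 22 small-subunit targets, and below them 38 large-subunit targets. RPS21 (0.61), RPS24 (0.60), RPS16 (0.60), RPS14 (0.55) and RPS12 (0.54) were the highest targets, and RPL3 (-0.92), RPL30 (-0.90), RPL7A (-0.73) and RPL9 (-0.71) were among the lowest. The small-subunit targets below 0 were RPS4Y1 (-0.25), RPS27L (-0.16), RPS27 (-0.11), RPS15 (-0.10) and RPS4X (-0.08), named after their values were seen, and RPS4Y1 and RPS27L are paralogs of other small-subunit genes. RPLP2, a stalk protein, was the large-subunit target furthest above 0 (0.20). Within the numbered and unnumbered titles the middle values were 0.41 and 0.37 for small-subunit targets and -0.48 and -0.51 for large-subunit targets.

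**Figure D3:**
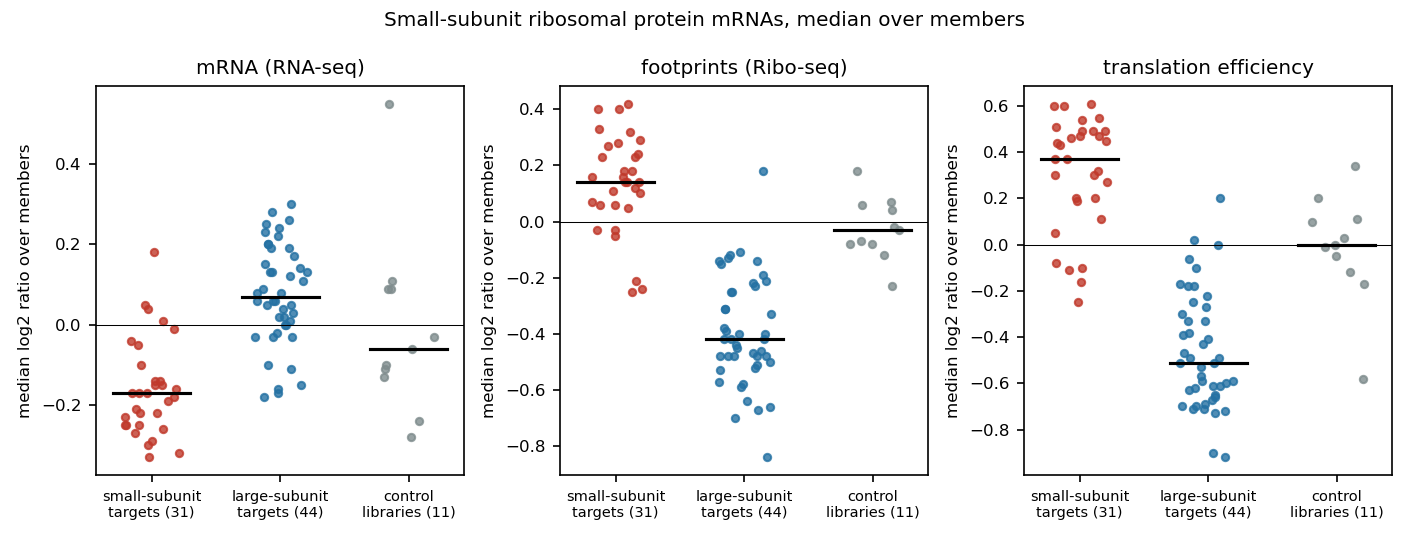
Median log2 ratio over the members in each knockdown target and control, in RNA-seq, Ribo-seq and translation efficiency, for 31 small-subunit targets, 44 large-subunit targets and 11 controls. The classes part furthest in translation efficiency, where 26 small-subunit targets lie above 0 and 41 large-subunit targets below it.

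In footprints the target medians ran from -0.25 to 0.42 for small-subunit targets (middle value 0.14, 25 of 31 above 0), from -0.84 to 0.18 for large-subunit targets (-0.42, 43 of 44 below 0) and from -0.23 to 0.18 for controls. RPL3 (-0.84), RPL30 (-0.70), RPL35 (-0.67), RPL18 (-0.66) and RPL23A (-0.64) were lowest, and RPS14 (0.42), RPS21 (0.40), RPS24 (0.40), RPS23 (0.33) and RPS16 (0.32) highest. In mRNA they ran from -0.33 to 0.18 for small-subunit targets (-0.17, 4 above 0). For large-subunit targets they ran from -0.18 to 0.30 (0.07, 33 above 0). Controls ran from -0.28 to 0.55, where 0.55 was control 20_2 and the next highest value was 0.11. Unnumbered controls ran from -0.1 to 0.09. Of the unnumbered targets, 16 of 19 small-subunit ones lay below these controls and 1 above, and 17 of 40 large-subunit ones above and 4 below. In the numbered titles 0 of 12 small-subunit and 0 of 4 large-subunit targets lay outside their controls. RPS2 (-0.33), RPSA (-0.32), RPS3A (-0.30), RPS13 (-0.29) and RPS16 (-0.27) had the lowest mRNA medians, and RPL8 (0.30), RPL15 (0.28), RPL9 (0.26), RPL6 (0.25) and RPL32 (0.24) the highest. The columns of the deposited tables form 3 alphabetical runs, each with its own controls, and RPS2, RPSA, RPS3A, RPS13, 1 library of RPS16, RPL3, RPL30 and RPL35 stand in the third. Against the 2 controls of that run the mRNA medians of RPS2, RPSA, RPS3A and RPS13 were -0.19, -0.20, -0.18 and -0.13, which is no longer the lowest of the small-subunit targets. With this scale the translation efficiency medians by run were 0.51, 0.45 and 0.38 for small-subunit and -0.44, -0.50 and -0.69 for large-subunit targets, so that these middle values lay on opposite sides of 0 in each run. With a term for the run in place of the title set, the numbers called between the classes were 24 lower in mRNA, 20 higher in footprints and 22 higher in translation efficiency, and FAU and RPS27 were then called higher in translation efficiency (0.23 and 0.69) and RPS3A was not (0.69).

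**Figure D4:**
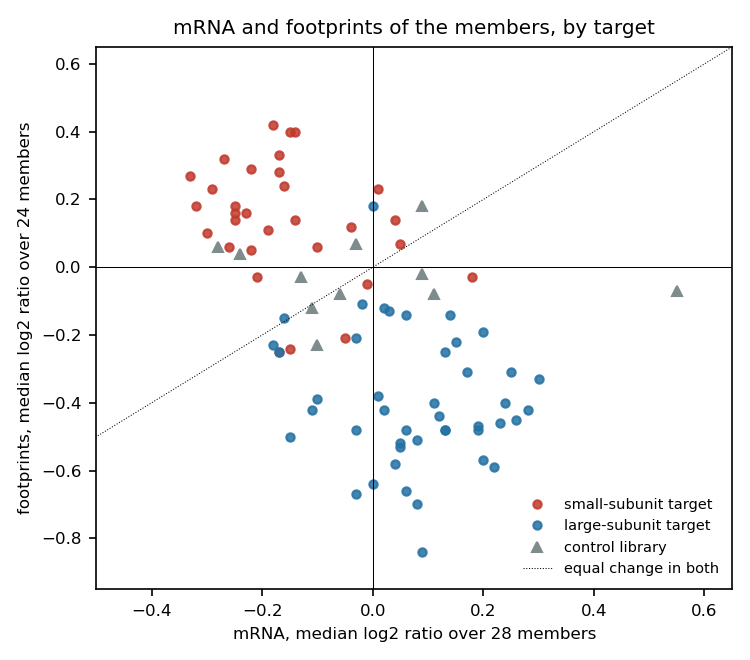
Median log2 ratio over members in Ribo-seq (vertical axis) against RNA-seq (horizontal axis), 1 point per knockdown target and triangles for control libraries. Small-subunit targets gather at lower mRNA (middle value -0.17) and higher footprints (0.14), and large-subunit targets at slightly higher mRNA (0.07) and lower footprints (-0.42).

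The 16 targets with 2 libraries allow a test per target against the 6 controls of the numbered titles. Over the 12 small-subunit targets, 46 of 304 member-by-target tests were higher in translation efficiency and 13 lower, where tests over all genes gave 1.05% higher and 1.23% lower. Over the 4 large-subunit targets 25 of 104 were lower (0.823% over all genes) and 0 higher (0.393% over all genes; 3 at unadjusted p under 0.05, and 0 with lysate-paired limma). Footprints gave 71 higher and 37 lower of 304 for small-subunit targets (12.1% and 14.5% over all genes), and 3 higher and 34 lower of 104 for large-subunit targets (13.9% and 14.9% over all genes). mRNA gave 5 higher and 52 lower of 327 for small-subunit targets (12% and 12.8% over all genes), and 31 higher and 1 lower of 112 for large-subunit targets (13% and 14.5% over all genes). The tests of all 16 targets share these controls. With 1 of the 2 libraries of every target left out, 0 of these translation efficiency calls were made in either direction (edgeR), and 3 of the lower mRNA calls in small-subunit targets. Without control 20_2 the mRNA counts higher became 28 and 53 for small- and large-subunit targets, and the lower counts in translation efficiency 26 and 40. Without controls 21_1 and 21_2, of the third run of columns, small-subunit targets had 23 higher and 110 lower in mRNA, 117 higher in footprints and 95 higher in translation efficiency, and large-subunit targets 11 lower in mRNA.

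Among the 4 large-subunit targets, RPL21 and RPL15 had the most members called. In RPL21 knockdown translation efficiency was lower for 9 of 26 members (median -0.85; 1.07% of all genes), footprints were lower for 16 (18.9% of all genes), and mRNA was higher for 10 of 28 (17.4% of all genes). In its 2 libraries RPS6 had log2 ratios of 0.45 and 0.39 in mRNA, -0.79 and -0.83 in footprints and -1.24 and -1.22 in translation efficiency. The fitted change of RPS6 was -1.28 ± 0.14 in RPL21 knockdown and -1.25 ± 0.14 in RPL15 knockdown (adjusted p = 4.24e-09 and 2.96e-08, edgeR). In RPL15 knockdown translation efficiency was lower for 9 members (median -0.64; 1.08% of all genes) and mRNA higher for 13 (16% of all genes), among them RPS3A (0.60 ± 0.10). In RPL24 knockdown translation efficiency was lower for 7 members (median -0.32; 1.14% of all genes), and footprints were higher for 3 and lower for 5 (14.5% and 15% of all genes). Knockdown of RPL29 called 0 members in translation efficiency (edgeR, with 2 higher and 4 lower at unadjusted p under 0.05). Over all genes 0.0321% were higher and 0.00801% lower in translation efficiency. In mRNA 1 member was lower (6.27% of all genes lower) and in footprints 1 was lower (5.75% of all genes lower).

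Among the small-subunit targets, RPS12 (10 of 25 higher, 1 lower), RPS16 (9 higher), RPS26 (7 higher of 26), RPS3 (5 higher, 1 lower) and RPS9 (4 higher) had the most members with higher translation efficiency. Over all genes the shares called higher differed too, at 3.77% for RPS12, 1.81% for RPS16, 0.553% for RPS26, 1.74% for RPS3 and 0.713% for RPS9. RPS15 had 0 higher and 2 lower (2 higher and 5 lower at unadjusted p under 0.05, edgeR), with a median of -0.15, and RPS15A 0 higher and 1 lower (3 and 3 at unadjusted p under 0.05). Over all genes 1.89% were higher and 0.585% lower for RPS15, and 0.264% and 0.024% for RPS15A. RPS19 was the member with the steadiest answer. Its footprints were called higher in all 12 small-subunit targets and its translation efficiency in 8. In RPS9 knockdown the footprint ratios of RPS19 were 1.20 and 1.04, with a fitted change of 1.14 ± 0.09 (adjusted p = 4.76e-12, edgeR). RPS21 footprints were called higher in 10 of the 12, and RPS4X rose in translation efficiency by 1.13 ± 0.17 in RPS16 knockdown. RPS9 mRNA was called lower in 8 of 11 small-subunit targets and 0 of 4 large-subunit targets, with ratios of -1.14 and -1.18 in the libraries of RPS12 knockdown (fitted -1.16 ± 0.21, adjusted p = 1.46e-04, edgeR).

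Several members had lower footprints in some small-subunit targets and higher ones in none. These were most often RPSA, RPS12 (lower in 8 of 11), RPS27A (7 of 12) and RPS9 (5 of 11). Less often they were RPS2 (3 of 12), RPS20 (2 of 12), RPS3A (1 of 12) and RPS15 (1 of 11). RPS12 was also lower in translation efficiency in 4 targets and RPS27A in 3, both higher in 0 (edgeR). For RPSA, footprints were called lower in 9 of 12 small-subunit targets and translation efficiency in 5, and neither was called higher in any of them. In RPS15 knockdown the RPSA ratios were 0.25 and 0.28 in mRNA, -0.75 and -1.28 in footprints and -1.0 and -1.57 in translation efficiency (fitted -1.31 ± 0.23, adjusted p = 0.00134, edgeR). In 2 unnumbered targets with 1 library each, picked after their values were seen, RPSA was far from this. With RPS2 knocked down RPSA stood at -1.28 in mRNA, 1.23 in footprints and 2.51 in translation efficiency, and with RPS21 knocked down at -0.64, 1.31 and 1.95. RPS2 and RPS21 are neighbours of RPSA on the solvent side of the subunit. These single libraries have no replicate check.

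Another pair stood apart in mRNA. In RPS26 knockdown the mRNA of RPS27, a zinc-binding platform protein, had ratios of -2.27 and -2.16 (fitted -2.22 ± 0.19, adjusted p = 9.87e-10, edgeR), and that of RPS14 -1.07 and -1.05 (fitted -1.05 ± 0.14, adjusted p = 2.98e-06). RPS29 had translation efficiency ratios of 1.74 and 2.06 in the libraries of RPS16 knockdown (fitted 1.88 ± 0.39, adjusted p = 0.00303, edgeR). Among targets with 1 library, picked after their values were seen, RPS27A was at -0.08 in mRNA and -2.03 in footprints in RPL23A knockdown. RPS20 was at -1.38 in mRNA and -1.71 in footprints in RPL22 knockdown. RPS15 was at -1.65 and -1.55 in RPS23 knockdown and at -1.5 and -1.99 in RPL38 knockdown, so that mRNA and footprints of RPS15 and RPS20 were low together.

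**Figure D5:**
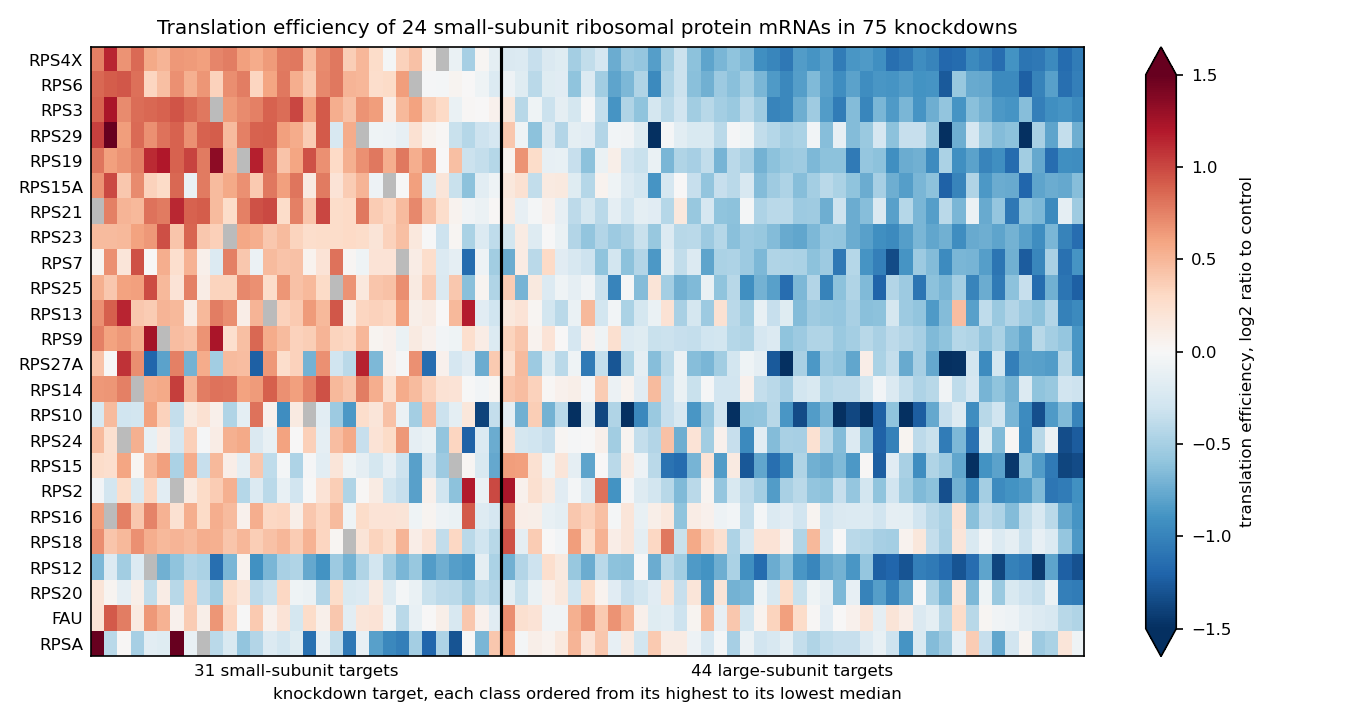
Log2 ratio of translation efficiency for 24 members (rows) in 75 knockdown targets (columns, by subunit), with grey cells for a member's own knockdown. Most cells are above 0 under small-subunit targets and below 0 under large-subunit targets, while the row of RPS12 is mostly below 0 on both sides and those of RPSA, RPS20, FAU, RPS27A and RPS10 are mixed.

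Counted by size over all targets, 181 of 723 member values (25%) were at least 1.5-fold higher in translation efficiency under small-subunit knockdown, against 7.17% of the values of all genes, and 45 (6.22%) at least 1.5-fold lower, against 6.61%. Under large-subunit knockdown 14 of 1056 (1.33%) were higher, against 6.27%, and 412 (39%) lower, against 7.32%. In footprints 68 of 723 (9.41%) were higher and 69 (9.54%) lower under small-subunit knockdown, where all genes gave 10.5% and 12.9%. Under large-subunit knockdown 15 of 1056 (1.42%) were higher and 306 (29%) lower, against 11.2% and 14.2%. Changes of mRNA of this size were fewer than over all genes, with 11 of 843 (1.3%) higher and 53 (6.29%) lower under small-subunit knockdown, against 6.23% and 9.8%. Under large-subunit knockdown they were 29 of 1232 (2.35%) higher and 6 (0.487%) lower, against 6.66% and 9.8%. These values come from 1 or 2 libraries a target and carry no test. The shares over all genes include genes near the filter of 1 CPM, whose ratios carry more counting error. Members had mean mRNA of 75.3 to 2360 CPM, and the shares were not matched for level. Whether level bears on the smaller mRNA shares of the members was not tested.

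Over all targets of both classes together, most members moved with each other, and RPSA, RPS20, FAU, RPS27A and RPS12 did so least. The correlation of a member's translation efficiency ratio with the mean of the other members, over 74 or 75 targets that share controls, was 0.96 for RPS4X, 0.95 for RPS6 and RPS23 and 0.94 for RPS3. It was 0.09 for RPSA, 0.43 for RPS20 and FAU, 0.50 for RPS27A and 0.52 for RPS12. These values include the difference between the classes. Within the small- and large-subunit targets the correlation was 0.86 and 0.90 for RPS4X, and 0.29 and 0.55 for RPSA. It was 0.21 and 0.19 for RPS10, -0.14 and 0.8 for RPS2, and 0.07 and 0.69 for RPS12, so that the order of members differs within a class. These are descriptions, since the points share libraries and depth. Members with a pyrimidine run at the annotated start base had differences in translation efficiency between small- and large-subunit knockdowns from -0.1 to 1.25. Their median was 0.72, and 15 of 19 were called higher. Members without a run at that base ran from 0.43 to 1.29, with a median of 1.01 (4 of 4 tested higher). Only 4 members stand on that side, and whether the run bears on the difference was not tested.

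Large-subunit protein mRNAs and other TOP mRNAs had values close to those of the members in the comparison of small- with large-subunit knockdowns. Of 47 large-subunit protein genes, 40 had higher and 0 lower translation efficiency (edgeR; 1 lower at unadjusted p under 0.05), with a median of 0.75 and RPL4 at 1.06 ± 0.06. In mRNA 38 were lower and 0 higher, and in footprints 38 higher and 3 lower. The list of other TOP mRNAs holds genes of translation and also others, such as VIM and HNRNPA1. Of these TOP mRNAs 19 of 20 tested had higher translation efficiency and 1 lower (median 0.76). Among the higher were the elongation factor subunit gene EEF1B2 (1.27 ± 0.07, adjusted p = 1.32e-37, edgeR) and the initiation factor gene EIF3L. In mRNA 20 of the 22 on this list were lower, and in footprints 13 of 20 were higher and 1 lower. Genes that act on TOP mRNAs, such as MTOR and LARP1, had 0 of 16 called in translation efficiency (edgeR; 0 higher and 1 lower at unadjusted p under 0.05), 2 higher and 3 lower in mRNA and 1 higher and 2 lower in footprints. Of 28 factors of 40S assembly, the rRNA methyltransferase gene FBL was the 1 with higher translation efficiency (0.46 ± 0.06). For these factors mRNA was higher for 1 and lower for 4, and footprints were higher for 2 and lower for 6. Beside all counts of these lists stand the shares over all genes in the same comparison. They were 16.4% higher and 15.3% lower in mRNA, 11.3% and 10.9% in footprints, and 2.47% and 1.17% in translation efficiency.

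The genes outside the ribosomal proteins whose translation efficiency ratio was most like the mean over members were EIF3L (Pearson r = 0.961), the elongation factor gene EEF2 (0.96), the glutaminyl-tRNA synthetase gene QARS1 (0.952), the mitochondrial carrier gene SLC25A6 (0.952) and the ribosome-bound RACK1 (0.951), over 75 targets and among 8395 genes. Within small- and large-subunit targets r was 0.886 and 0.892 for EIF3L. In footprints the 5 were EEF1B2 (0.929), TPT1 (0.89), EEF1G (0.872), RACK1 (0.851) and EEF1D (0.824), of 8800 genes. Within small-subunit targets their r in footprints was 0.779, 0.854, 0.435, 0.785 and 0.366 in the same order. Within large-subunit targets it was 0.828, 0.724, 0.805, 0.728 and 0.681. In mRNA they were EEF1G (0.896), ENSG00000255508 (0.896), which has no symbol in the table used, EIF3L (0.885), QARS1 (0.88) and RACK1 (0.872), of 10024 genes. Within small- and large-subunit targets ENSG00000255508 had 0.684 and 0.889, nearly the values of EEF1G (0.685 and 0.89). Whether it shares reads with EEF1G was not tested, so it may not be a separate signal. All values share the controls, and r over all 75 targets includes the difference between the classes. No more than likeness over these targets is measured.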

How the data were processed

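RNA-seq and Ribo-seq tables of whole-number counts per gene were deposited by the authors (exon counts and coding-sequence counts); STAR 2.6.1, cutadapt 1.8.1 and bcl2fastq 2.20.0.422, with the GRCh38 build, are credited in the submitters' processing notes. For the counting program, strand and shared reads, the setting is not given in the sources used here. Libraries were matched to columns by name, and the controls 21_1 and 21_2 to their group. Both RNA-seq columns of RPS15 were matched by target and replicate, since the number between these in their titles differs from that in the column names.

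The filter kept genes that reached 1 CPM in 11 or more libraries (15526 in RNA-seq, 12793 in Ribo-seq, 12480 in translation efficiency). They were tested with TMM scaling and edgeR 4.0.16 (quasi-likelihood test, R 4.3.3), with the title set as a term and Benjamini-Hochberg adjustment over all genes at 0.05. Translation efficiency was the interaction of assay and group. The model was refitted without the gene's own knockdown for each targeted member. Ratios per library are log2 of (CPM + 0.5) over the control mean within a title set, which understates changes of low genes. RPS3A, RPS26, RPS27 and RPS28, under 5 CPM in control footprints, were left out of medians over members in Ribo-seq and translation efficiency, which rest on 24 members. Alternatives used DESeq2 1.42.0 and limma 3.58.1 (log2 ratio per lysate, prior count 2), and the scripts were tested on simulated data.

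Members and gene lists were chosen with earlier results of these data known. All members could be named; values per library are given for those with the 4 largest and 4 smallest differences, with the 5 highest and lowest targets and the 5 most similar genes per readout. Members and targets outside this rule are said to be picked after their values were seen. The comparisons of each class with control, the term for the run of columns, the runs of controls and the use of 1 library per target were added after the data were seen. Some values are not reported here. Intervals and floors cover counting error only.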

Additional observations from a re-analysis of the deposited data

Results flagged for a closer look

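In 7 of 158 groups of controls tested, 1 library lay far from the others of its title set by Dixon's criterion, which flags about 1 in 20 groups by chance. Control 20_2 had RPS15 at 0.59 in RNA-seq (other numbered controls -0.35 to -0.04) and RPS20 at 0.38 (-0.15 to -0.01). In the same library RPS19 was at -0.66 in translation efficiency (0.04 to 0.34) and RPS20 at -0.45 (-0.03 to 0.17). In the unnumbered set, control 3 had RPS3 at 0.33 (-0.11 to -0.07) and RPS4X at 0.24 (-0.11 to -0.03) in RNA-seq, and control 7 had RPS29 at 0.29 (-0.13 to -0.04).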

How the results depend on the processing

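The calls between small- and large-subunit knockdowns were the steadiest. Counts in the numbered titles alone were 11 lower in mRNA, 1 lower in footprints and 1 lower in translation efficiency, and without the set term 1 higher in mRNA (FAU, 0.19, against -0.07) and 1 lower in footprints. RPS14 footprints were at -0.02 in the numbered titles. For all knockdowns against control, the 1 lower mRNA became 0 with DESeq2 size factors, library sizes without ribosomal protein genes, no filter, own knockdowns kept, either title set, without control 20_2, DESeq2 and 1 library per target; with the run of columns as a term it was 2 lower and 1 higher. Footprints higher were 1 (library sizes without ribosomal protein genes, DESeq2) or 2 (numbered), and lower 1 (own kept, unnumbered). The 1 lower in translation efficiency became 0 without the set term, with own kept and in either set. For small-subunit knockdowns against control, mRNA lower was 7 (library sizes without ribosomal protein genes; 1 library per target), 3 (no filter), 2 (own kept), 1 (numbered) and 6 (unnumbered; without control 20_2). Footprints higher were 3 (own kept) and 2 (unnumbered), and lower 1 (library sizes without ribosomal protein genes, unnumbered, 1 library per target). Translation efficiency higher was 0 (own kept, unnumbered) and 1 (numbered), and lower 0 (no set term, own kept, either set). For large-subunit knockdowns, mRNA higher was 1 (own kept, unnumbered) and 3 (numbered), footprints lower 9 (unnumbered), and translation efficiency lower 6 (no set term), 3 (own kept) and 5 (either set). Large-subunit targets with footprints above 0 were 2 against all 11 controls. The cause was not tested. Leaving the own knockdown in adds, by construction, a gene's own depletion to its class and to the spread shared by all groups.

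For the 16 targets, mRNA higher in small-subunit targets was 3 (DESeq2 size factors), 9 (library sizes without ribosomal protein genes), 28 (without control 20_2) and 23 (without controls 21_1 and 21_2), and lower 110 (without 21_1 and 21_2). For large-subunit targets mRNA higher was 53 and lower 0 without control 20_2, and lower 11 without 21_1 and 21_2. Footprints higher were 117, and translation efficiency higher 95, in small-subunit targets without 21_1 and 21_2; translation efficiency lower was 26 (small) and 40 (large) without control 20_2. Without replicate 1 or 2 each target keeps 1 library, assumed to vary like the other groups. Counts then ranged from 0 to 0 for mRNA higher (small, large) and lower (large), from 3 to 3 for mRNA lower (small), from 12 to 16 for footprints higher (small), from 5 to 8 for footprints lower (small, large), from 0 to 2 for footprints higher (large), and from 0 to 0 for translation efficiency in every direction.

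Replicate numbers did not pair libraries (median correlation of deviations -0.0663 in RNA-seq and 0.0634 in Ribo-seq; 63 and 66 of 153 pairs over 0.1). With the replicate block, mRNA calls were 15 higher and 109 lower (small) and 11 lower (large), footprints 131 higher (small) and 5 higher (large), and translation efficiency 104 higher (small). No analysis paired by replicate number was possible for the classes because replicate numbers exist only within targets that have 2 libraries. RNA-seq and Ribo-seq of the same lysate had a median correlation of deviations of 0.191 (11 of 18 pairs over 0.1). The edgeR model of translation efficiency held no lysate term, while the limma alternative used lysate-paired ratios. Depth limits RPS26, RPS28, RPS3A and RPS27 in footprints.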
